A study of Mus musculus with 6 samples.

Results

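Vip interneurons, inhibitory neurons that make vasoactive intestinal peptide, were examined in single-nucleus RNA sequencing of hippocampi from aged mice, 18 to 20 months old. The nuclei were chosen by their own counts of a few genes. A barcode was taken as a Vip nucleus when it held at least 500 unique molecular identifiers (UMIs, each standing for a counted RNA molecule) with at most 5% from mitochondrial genes. It also had to hold at least 3 UMIs of Gad1 and Gad2 together, at least 2 of Vip, at most 2 of Sst and 0 of Pvalb. This gave 141 nuclei of the 53294 that passed the UMI and mitochondrial filters. They were 0.265% of all nuclei and 3.62% of the 3890 inhibitory nuclei, that is, nuclei with at least 3 Gad1 and Gad2 UMIs. The 3 sevoflurane libraries came from mice that inhaled 2% sevoflurane, a volatile anaesthetic, carried in 60% oxygen at 1 L/min over 6 h. The 3 oxygen libraries came from mice given 60% oxygen without sevoflurane, at an equal flow and over equal time. The sevoflurane libraries held 19, 23 and 31 Vip nuclei (73 in all) and the oxygen libraries 22, 26 and 20 (68 in all). Values of 3 libraries are listed from replicate 1 to replicate 3 throughout. The labels give neither the number of animals behind a library nor a statement that replicates were separate animals. A p-value here therefore reflects how much libraries vary, and that variation may be technical.

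Vip interneurons arise in the caudal ganglionic eminence of the embryo, together with other Adarb2-expressing interneurons, and many of them synapse mainly onto other interneurons. In the hippocampus they release GABA and peptides, and part of them carries cholecystokinin or calretinin (Calb2). They receive cholinergic, serotonergic and noradrenergic input, and the firing of those that target interneurons relieves pyramidal neurons of inhibition. Sevoflurane acts in part through GABA-A receptors and two-pore potassium channels.

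Single libraries held 121243 to 330172 UMIs in their Vip nuclei, the lowest in sevoflurane replicate 1 and the highest in sevoflurane replicate 3. The median Vip nucleus of a library held 5737 to 9127 UMIs. With so few nuclei, only the more abundant genes could be tested. Sex-linked genes went against the labels: Xist had a counts-per-million value (CPM, a gene's share of the UMIs of a library or set of nuclei) of 1369 in sevoflurane replicate 1, labelled male, and of at most 1.20 CPM elsewhere, also in the replicates 3 of both groups, labelled female. Whether libraries were exchanged between labels was not tested, and the groups follow the labels. The called gene is therefore also given without each of these 3 libraries. Libraries shared 328 barcode sequences in pairs, of which 0 were shared between Vip nuclei. A doublet caller (Scrublet, score above 0.3) marked 5 of the 141 nuclei. Markers of excitatory neurons or glia stood at or above set limits in 34 of them. The excitatory marker Slc17a7, with at least 2 UMIs, did so in 23 nuclei, the astrocyte marker Slc1a3, with at least 4, in 2, and the microglial marker Csf1r, with at least 4, in 0. These nuclei numbered 5, 2 and 8 after sevoflurane and 10, 4 and 5 with oxygen. Deep nuclei weigh more in the summed counts. In oxygen replicate 1, whose Vip nuclei held 299929 UMIs, the 10 included nuclei with 36574, 32427, 30650, 29292 and 24951 UMIs. Much of the summed profile of that library therefore came from nuclei with markers of other classes.

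The nuclei carried the markers of the label. Adarb2, which encodes an RNA-binding relative of the RNA-editing enzymes and marks interneurons of caudal origin, was detected in 138 of the 141 nuclei. It stood at 14896, 10292 and 11552 CPM after sevoflurane and at 10012, 15074 and 14748 CPM with oxygen in the Vip nuclei. The other inhibitory nuclei had 2309 to 3960 CPM in every library, and the groups of Sst nuclei (287 nuclei), Pvalb nuclei (130) and Lamp5 nuclei (181) had medians of 175, 87.5 and 2447 CPM. Vip, used by the rule, lay at 277 to 610 CPM, against 4.30 to 5.62 CPM in other inhibitory nuclei. Prox1, a transcription factor of caudal interneurons, was detected in 106 nuclei, and Lhx6, the transcription factor of medially derived interneurons, in 5. These values describe how the gate performed, since the nuclei were picked by genes of this contrast, and no test was made of them.

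The limit on Vip is a sharp line through sparse counts. Of the 141 nuclei, 44 held exactly 2 Vip UMIs, and the highest held 10. Just outside the gate lay 142 inhibitory nuclei with exactly 1 Vip UMI and the same limits on Sst and Pvalb. Their Adarb2 level was 4481, 3536 and 3900 CPM after sevoflurane and 6884, 9384 and 3003 CPM with oxygen, below the Vip nuclei of the same library each time. Vip UMIs also occurred in other classes: 19 of 6648 excitatory nuclei (0.286%) and 7 of 2582 oligodendrocyte nuclei (0.271%) held at least 2, against 157 of 3890 inhibitory nuclei (4.04%). Whether these came from free RNA or from doublets was not tested. Median depth per library was 9894 to 12722 UMIs in excitatory and 2373 to 2832 UMIs in oligodendrocyte nuclei.

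**Figure D1:**
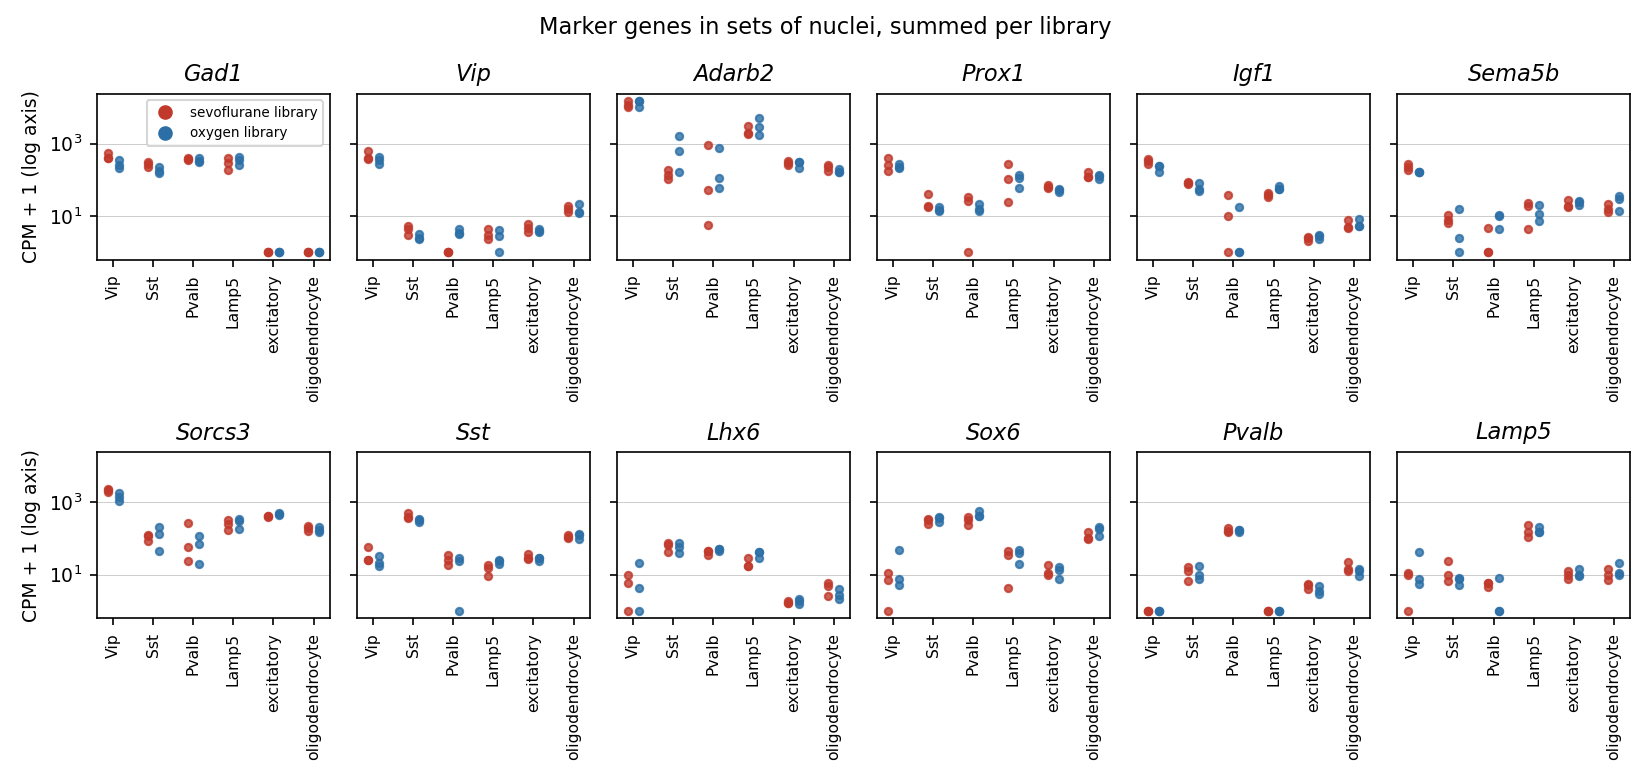
Level (CPM plus 1, log axis) of 12 marker genes in 6 sets of nuclei, 1 point per library, red for sevoflurane and blue for oxygen. The libraries' values of Adarb2, Igf1, Sema5b and Sorcs3 in Vip nuclei lie above those of the other 5 sets, while Prox1 overlaps with Lamp5 nuclei; Lhx6 and Sox6 are lower than in Sst and Pvalb nuclei; Gad1, Vip, Sst and Pvalb were used to choose the nuclei.

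Part of the caudal-origin genes outside the rule were also higher. Of 26 genes on a list of caudal-origin and Vip cell markers (Vip itself left out), 12 were higher in Vip nuclei than in other inhibitory nuclei in all 6 libraries, and 5 of these by at least 2 times in each library (5 CPM added to both sides). In all 6 libraries 1 gene of the list was lower, Ptprm, at 84.8 to 487 CPM against 455 to 776 CPM. Igf1, a growth factor of Vip cells, reached 371, 276 and 336 CPM after sevoflurane and 240, 247 and 169 CPM with oxygen, against 52.6 to 71.7 CPM in other inhibitory nuclei. It was detected in 116 of 141 Vip nuclei (82.3%, 95% Wilson interval 75.1% to 87.7%). Tac2, which encodes neurokinin B, lay at 20.6 to 73.9 CPM, against 1.30 to 4.59 CPM in the other inhibitory nuclei. Of 18 genes on a list of medial-origin and other interneuron markers, 0 were higher in all 6 libraries and 8 were lower in all of them. The shares of all genes that were higher or lower in all 6 libraries are not given here. The counts of both lists are therefore a description only. Sox6, a transcription factor of medially derived cells, stood at 0 to 45.6 CPM in Vip nuclei and at 114 to 258 CPM in the other inhibitory nuclei.

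Oxygen replicate 2 stood apart in markers of other interneurons. Nxph1, a secreted neurexin ligand of medially derived and Lamp5 cells, had 1, 6 and 41 UMIs after sevoflurane and 30, 271 and 6 with oxygen. The summed CPM of 5 Sst cell markers was 1398 in that library and 223 to 384 in the other 5. Its Lamp5 cell markers summed to 643 CPM, against 40.0 to 384 CPM elsewhere. Reln and Lhx6 were also counted by nucleus, while Nxph1, among the 5 Sst cell markers, was not. Reln, among the Lamp5 cell markers, had 133 UMIs in that library, of which 94 came from a single nucleus. Lhx6, among the Sst cell markers, had 5, of which 2 came from a nucleus with 10 Adarb2 UMIs and 3 from another with 11. In sevoflurane replicate 2, 55 of 72 Reln UMIs came from a single nucleus.

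Genes outside the rule were ranked by their ratio of Vip to other inhibitory nuclei in the least favourable library. The 20 highest were kept, a number set beforehand, and some of them are given here. Sema5b, a semaphorin of axon guidance, led with 231, 192 and 270 CPM after sevoflurane and 160.0, 165 and 159.8 CPM in the oxygen libraries. The other inhibitory nuclei held 11.03 to 20.6 CPM of it, a ratio of 6.45 in the lowest library. Next came Svil, which encodes the actin-binding protein supervillin (lowest ratio 5.03), the Wnt ligand gene Wnt5b (4.82) and Grpr, the receptor for gastrin-releasing peptide (4.38). Egfr, the epidermal growth factor receptor, stood at 206 to 482 CPM against 30.9 to 73.0 CPM, a range that overlaps the 76.6 to 243 CPM of Lamp5 nuclei. The adrenergic receptor gene Adra1b stood at 91.3 to 217 CPM against 11.6 to 20.4 CPM. Sorcs3, a sorting receptor of neurons, lay between 1070 and 2302 CPM, against 269 to 347 CPM.

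Genes that divide Vip cells into subtypes were seen in parts of the nuclei. Cnr1, the cannabinoid receptor of cholecystokinin basket cells, was detected in 120 of 141 nuclei (85.1%). After each nucleus was thinned to 2000 UMIs, it was detected in 48.9% of Vip nuclei, against 18.4% of other inhibitory, 10.5% of excitatory and 12.04% of oligodendrocyte nuclei. Calb2, which encodes calretinin, was detected in 33 nuclei (23.4%) and, thinned, in 5.67%, against 1.98% of oligodendrocyte nuclei. Penk, the enkephalin precursor, was detected in 28 nuclei (19.9%) and, thinned, in 9.93%, against 0.864% of oligodendrocyte nuclei. The serotonin receptor gene Htr3a was found in 29 nuclei (20.6%) and Tac2 in 27 (19.1%). Crh was found in 6 nuclei and Chat, the enzyme of acetylcholine synthesis, in 3.

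Cck, the cholecystokinin gene, was detected in 80 of 141 Vip nuclei (56.7%). It was detected in 56.8% of other inhibitory, 61.6% of excitatory and 49.4% of oligodendrocyte nuclei. Thinned, its share of Vip nuclei was 21.3%. This was above the 17.9% of other inhibitory and 17.1% of excitatory nuclei and below the 36.0% of oligodendrocyte nuclei. Of the Vip nuclei, 12 held both Cck and Calb2, 68 Cck without Calb2, 21 Calb2 without Cck and 40 neither. Cck in the summed Vip nuclei ranged from 49.5 CPM (oxygen replicate 2) to 305 CPM (sevoflurane replicate 1), while other inhibitory nuclei stayed between 71.0 and 116 CPM.

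The number of Vip nuclei did not separate the treatments. As a share of inhibitory nuclei they made up 2.65%, 3.24% and 3.78% after sevoflurane and 3.64%, 5.27% and 3.66% in the oxygen libraries. The 95% Wilson intervals, which cover counting error only, ran from 1.71% to 4.11% in the lowest library and from 3.62% to 7.62% in the highest. The means were 3.22% ± 0.564 after sevoflurane and 4.19% ± 0.938 with oxygen (SD, n = 3), a difference of -0.966 percentage points (two-sided exact permutation test over 20 assignments, p = 0.3, adjusted over both shares 0.6). As a share of all nuclei the means were 0.259% ± 0.0742 and 0.272% ± 0.0179 (exact permutation p = 0.7, adjusted 0.7). The smallest p this design allows is 0.1. The sign of the second difference turned when sevoflurane replicate 1 was left out (0.0218 percentage points). Vip itself was compared in all inhibitory nuclei, which were not chosen by it. A Vip UMI was present in 7.96%, 7.89% and 8.17% of them after sevoflurane and in 8.11%, 10.8% and 8.59% in the oxygen libraries. The log2 fold change of sevoflurane over oxygen was -0.27 (SE 0.18), which did not pass (edgeR, adjusted p = 0.532).

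**Figure D2:**
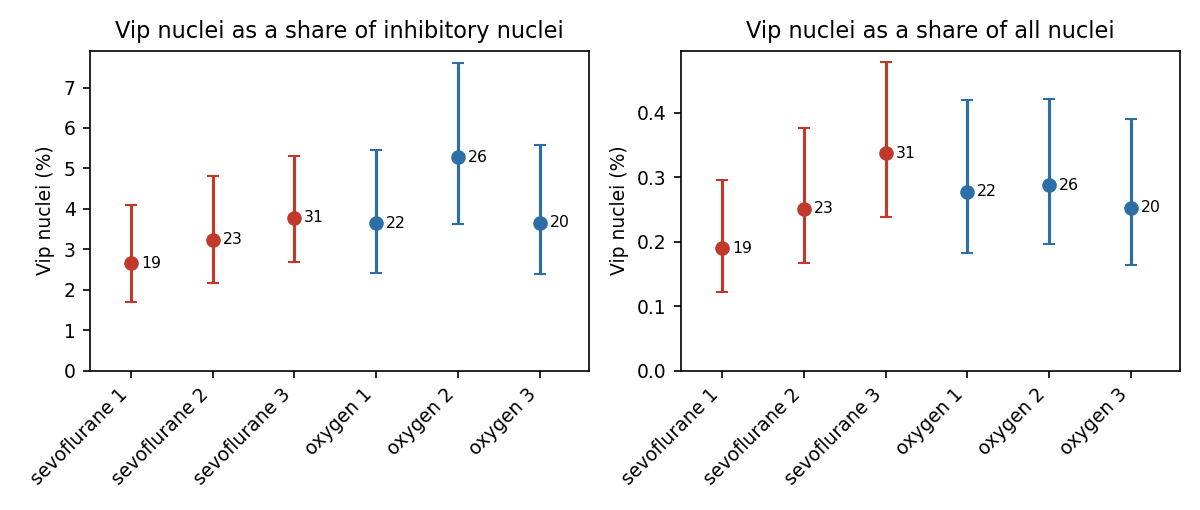
Vip nuclei as a percentage of inhibitory nuclei (left) and of all nuclei (right) in each library, with 95% Wilson intervals and the number of Vip nuclei beside each point. The intervals of the 6 libraries overlap, and the 26 nuclei of oxygen replicate 2 give the highest share of inhibitory nuclei.

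Between treatments, 1 gene was called in the Vip nuclei, of 4198 tested (0.0238%, edgeR quasi-likelihood test on counts summed per library, adjusted p under 0.05). This was Mir670hg (ENSMUSG00000075020), a long noncoding RNA gene that hosts the microRNA gene Mir670. It lies on the minus strand of chromosome 2, from 94160636 to 94264918 (mm10). The Vip nuclei held 141, 417 and 385 UMIs of it after sevoflurane and 99, 58 and 44 with oxygen. Scaled to the UMIs of these nuclei, this was 1163, 2056 and 1166 CPM after sevoflurane and 330.1, 239 and 201 CPM with oxygen, so every sevoflurane library lay above every oxygen library. The log2 fold change was 2.46 (SE 0.28, edgeR adjusted p = 0.000754), with means of 1462 ± 514 and 257 ± 66.4 CPM (SD, n = 3). DESeq2 also called this gene alone (adjusted p 1.34e-11).

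The libraries count RNA of the host gene and not the mature microRNAs. Only 22 bases of the Mir670 hairpin (chr2:94261300-94261399) lie in an annotated exon of Mir670hg. Both mature products of this gene, and the 3p products of the second host gene described further on, are shown to say which small RNAs the 2 transcripts could carry. The 5p products of the second host gene are left out. They are taken from RefSeq (GRCm38.p6), 5′ to 3′, with the seed, bases 2 to 8, in capitals. They matched by name for all 3 hairpins.
mmu-miR-670-5p: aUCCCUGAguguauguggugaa
mmu-miR-670-3p: uUUCCUCAuauccauucaggagugu
mmu-miR-132-3p: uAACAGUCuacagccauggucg
mmu-miR-212-3p: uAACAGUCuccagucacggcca
The last pair, from neighbouring hairpins on chromosome 11, shares the seed AACAGUC, and the products of Mir670 have seeds of their own.

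Within the Vip nuclei the Mir670hg counts were uneven. At least 1 UMI was present in 49 of 73 nuclei after sevoflurane and in 38 of 68 with oxygen. At least 10 UMIs, a limit chosen after the counts were seen, were present in 24 of 73 nuclei (32.9%) and in 4 of 68 (5.88%). By library these were 5, 9 and 10 nuclei after sevoflurane and 3, 0 and 1 with oxygen. The highest nucleus, with 152 UMIs, belonged to sevoflurane replicate 2 and held 36.5% of that library's count. Without the highest nucleus of every library, an alternative added after the data were seen, the log2 fold change was 2.45 (edgeR adjusted p = 0.000345). The 24 nuclei after sevoflurane had a median of 124 Adarb2 UMIs and 8700 UMIs in all (8699.5), the other 49 a median of 77 and 7793. Gad1 and Gad2 together, genes of the rule, had a median of 9.5 UMIs in the 24 and of 5 in the 49. Over whole libraries Gad1 stood at 569, 414 and 394 CPM after sevoflurane and at 257, 363 and 215 CPM with oxygen in the Vip nuclei, without overlap, and its part in the Mir670hg values was not tested. Cck was detected in 17 of the 24 and in 27 of the 49, Calb2 in 4 and 13, and Penk in 9 and 10. Whether more nuclei of a subtype were caught after sevoflurane or the same nuclei held more of this RNA cannot be told apart in these data.

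Outside the gate the libraries of the 2 groups overlapped. In nuclei with exactly 1 Vip UMI, Mir670hg stood at 118, 125 and 220.1 CPM after sevoflurane and at 168, 76.0 and 102 CPM with oxygen (exact permutation p = 0.5). At least 10 UMIs were present there in 2 of 82 and 2 of 60 nuclei. Inhibitory nuclei with 0 Vip UMIs had 70.9 ± 5.66 and 78.8 ± 8.74 CPM, and at least 10 UMIs in 20 of 2066 (0.968%) and 28 of 1495 nuclei (1.87%). In nuclei that were not inhibitory the means were 40.3 ± 4.74 and 41.3 ± 4.94 CPM. Over all other inhibitory nuclei the log2 fold change was -0.18 (SE 0.10, edgeR adjusted p = 0.415). The difference between Vip and other inhibitory nuclei, taken within each library, was 2.53 (limma adjusted p = 0.175) and did not pass across all genes.

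**Figure D3:**
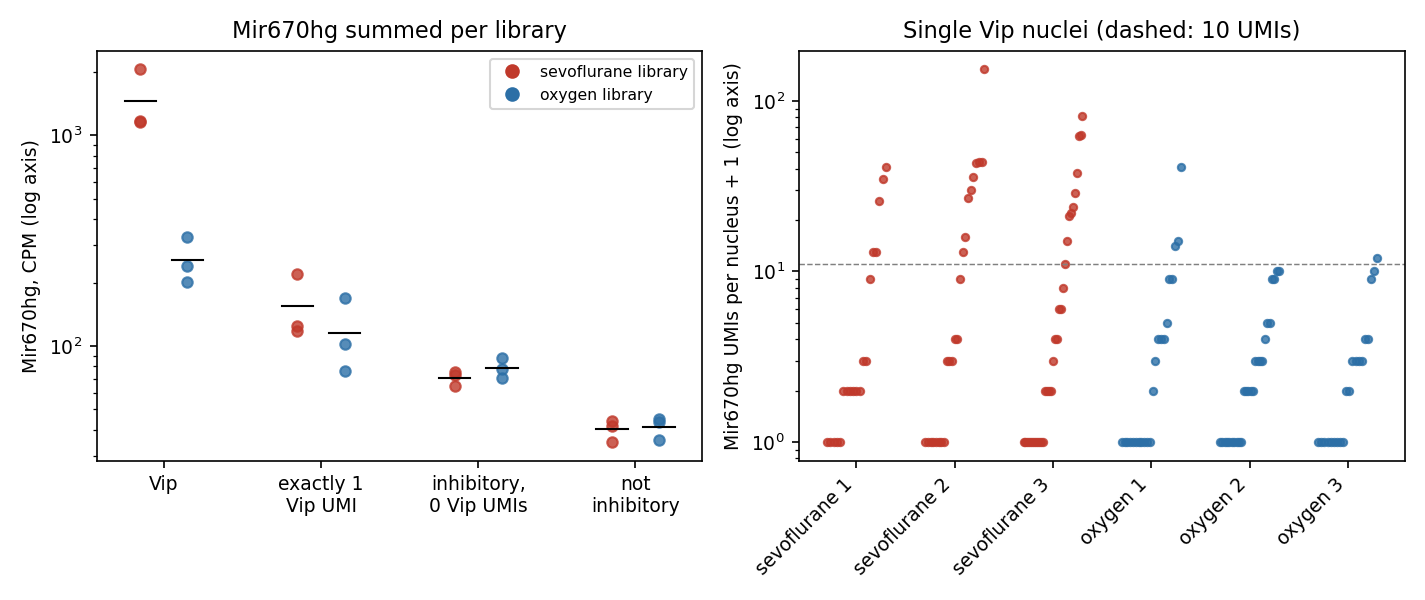
Left: Mir670hg in CPM (log axis) in 4 sets of nuclei, 1 point per library with the mean as a line. Right: Mir670hg UMIs plus 1 (log axis) in each Vip nucleus, sorted within its library, with the dashed line at 10 UMIs; 24 nuclei after sevoflurane and 4 with oxygen reach it.

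The call for Mir670hg held in 17 of 18 alternatives, with log2 fold changes from 2.11 to 2.67. Among the 3 libraries whose sex-linked genes went against the label, it was 2.59 without sevoflurane replicate 1, 2.60 without sevoflurane replicate 3 and 2.29 without oxygen replicate 3 (edgeR adjusted p = 0.00506, 0.00168 and 0.0222). The call was lost when the 34 nuclei with markers of other classes were left out (2.27, adjusted p = 0.335). The remaining nuclei still held 1662, 2633 and 996 CPM after sevoflurane and 594, 271 and 226 CPM with oxygen, groups that do not overlap, with 19 of 58 and 3 of 49 nuclei at 10 UMIs or more. Of the 12 other genes within 500 kb of Mir670hg, 3 could be tested and 0 were called by edgeR, with log2 fold changes from -0.87 to 0.30. The nearest of them, Hsd17b12, an enzyme of fatty acid elongation 2.67 kb away on the same strand, had 7, 22 and 23 UMIs after sevoflurane and 21, 17 and 10 with oxygen.

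The gene with the next smallest p, 1700016P03Rik, also hosts microRNAs, and it is described here because of that, chosen after its values were seen. It carries the hairpins of Mir132 and Mir212 in introns, with 0 exonic bases, at chr11:75173682-75173747 and chr11:75173388-75173478, on the plus strand within chr11:75172560-75177633 (mm10). Mir132 is known as a microRNA switched on by neuronal activity through CREB. The Vip nuclei held 21, 30 and 41 UMIs of the host RNA after sevoflurane and 14, 12 and 8 with oxygen. This was 173, 148 and 124 CPM against 46.7, 49.5 and 36.5 CPM, with no overlap of the groups. The log2 fold change of 1.64 (SE 0.29) did not pass (edgeR adjusted p = 0.0844). It passed without oxygen replicate 2 (1.73, adjusted p = 0.0392) and when no filter on low counts was used (1.61, adjusted p = 0.00425).

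In the other inhibitory nuclei the same gene rose, by 0.88 (SE 0.15, edgeR adjusted p = 0.0192), from 21.5 ± 3.73 to 42.2 ± 5.77 CPM (SD, n = 3). In nuclei with exactly 1 Vip UMI it stood at 51.9 ± 23.8 CPM after sevoflurane and 34.6 ± 16.4 with oxygen (exact permutation p = 0.3). The responses of Vip and other inhibitory nuclei differed by 0.61 (limma adjusted p = 0.604), which did not pass. Ovca2 overlaps the gene on the other strand and had 3 UMIs in all Vip nuclei. Of the 30 other genes within 500 kb, 7 were tested and 0 called by edgeR, with log2 fold changes from -0.41 to 0.31.

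The remaining genes with small p-values in Vip nuclei did not pass the test (edgeR adjusted p 0.293 to 0.435). They are given as values. Among those higher after sevoflurane, Plpp4, a lipid phosphatase gene, stood at 231, 315 and 230 CPM against 70.0, 103 and 142 CPM (log2 fold change 1.28). Tenm3, a teneurin that guides synaptic partner choice, stood at 891, 946 and 1305 CPM against 520, 557 and 488 CPM (0.97). In nuclei with exactly 1 Vip UMI, Tenm3 was on the other side, at 899 ± 327 CPM against 1693 ± 311 (exact permutation p = 0.1, the smallest possible). Creb5, a CREB-family transcription factor, had a log2 fold change of 1.21 and Maml3, a Notch coactivator, one of 0.90. Atp6v1b2, a subunit of the vacuolar proton pump, had 0.99, Wsb1, part of a ubiquitin ligase, 1.07, Efr3b, a membrane anchor of a lipid kinase, 1.05 and Rnf144b, a ubiquitin ligase, 1.19.

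Of the genes lower after sevoflurane, Cdh9, a cadherin of synapse formation, had 8, 5 and 17 UMIs after sevoflurane and 48, 27 and 22 with oxygen (log2 fold change -1.48). With oxygen 24 of its UMIs came from a single nucleus of replicate 1 and 21 from a single nucleus of replicate 2. Nuclei with exactly 1 Vip UMI did not repeat the order, with 192, 199 and 179 CPM of Cdh9 after sevoflurane and 63.8, 212 and 110.1 CPM with oxygen. Cdh20, another cadherin, stood at 157, 123 and 96.9 CPM against 280.1, 297 and 187 CPM in Vip nuclei (-1.12, adjusted p = 0.293). In the other inhibitory nuclei Cdh20 fell by 0.97 (edgeR adjusted p = 0.00173). Its response differed between the 2 sets by -0.10 (limma adjusted p = 0.942).

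Tmeff2, a transmembrane protein gene, stood at 247, 325 and 212 CPM after sevoflurane and 847, 346 and 744 CPM with oxygen (-1.35). Ptprm, a receptor phosphatase that binds its own kind on neighbouring cells, had 20, 25 and 28 UMIs against 56, 118 and 84 (-1.61). In the other inhibitory nuclei Tmeff2 fell by 0.56 and Ptprm by 0.61 (edgeR adjusted p = 0.0241 and 0.0194). Leaving out oxygen replicate 2 brought Tmeff2 past the threshold in Vip nuclei (-1.64, adjusted p = 0.00385), and leaving out oxygen replicate 1 did so for Ptprm (-1.95, adjusted p = 0.00249). Maml2, the Notch coactivator related to Maml3, had a log2 fold change of -1.50 in Vip nuclei and of 0.23 in other inhibitory nuclei. It passed without oxygen replicate 2 (-1.77, adjusted p = 0.0169) and stood at -0.10 when at least 3 Vip UMIs were required. The cell adhesion gene Dscaml1 had -0.88, Klhl3, an adaptor of a ubiquitin ligase, -1.34, and Ndst3, an enzyme that modifies heparan sulfate, -1.98.

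**Figure D4:**
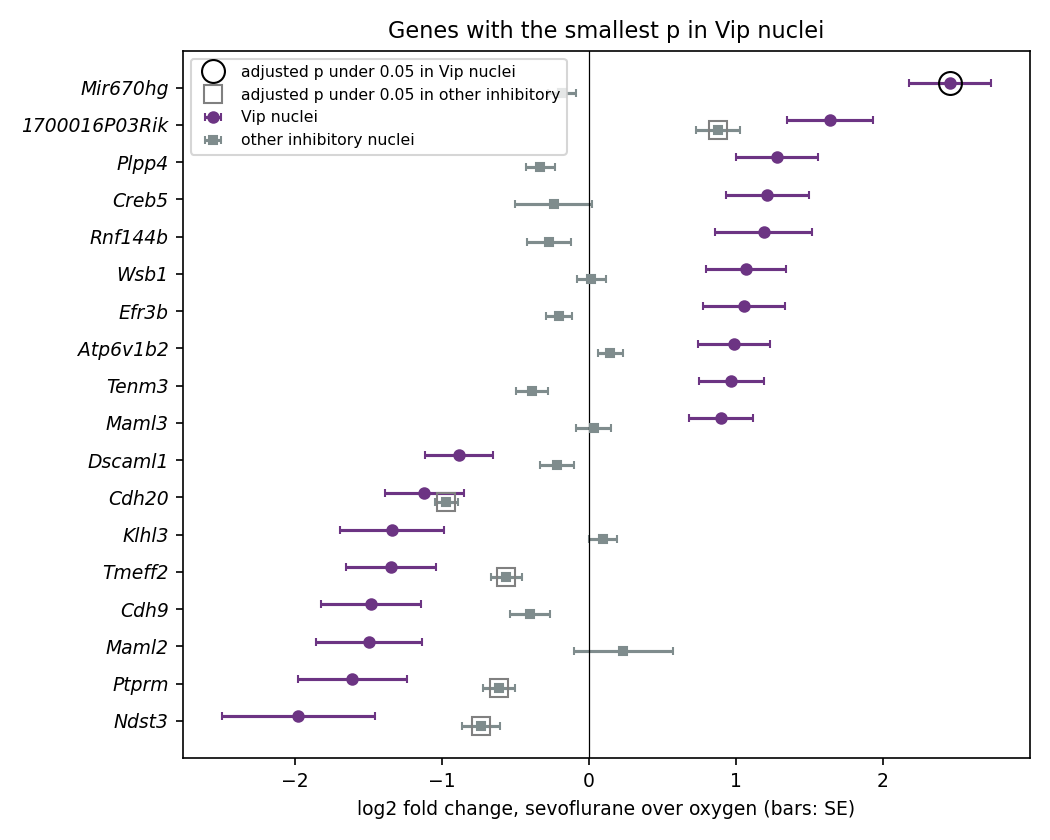
Log2 fold change of sevoflurane over oxygen with its standard error for 18 genes, in Vip nuclei (purple circles) and other inhibitory nuclei (grey squares). The black ring marks the gene called in Vip nuclei, Mir670hg, and the grey frames the genes called in other inhibitory nuclei: 1700016P03Rik, Cdh20, Tmeff2, Ptprm and Ndst3.

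These counts have to be read against what all genes did. Of the 4198 genes tested, 320 were higher in every sevoflurane library than in every oxygen library (7.62%) and 209 lower (4.98%). At an unadjusted p under 0.05, 147 were higher (3.5%) and 144 lower (3.43%). The median log2 fold change was -0.0089 and the median SE 0.318, against an SE of 0.156 in the other inhibitory nuclei, which held 3749 nuclei. There, 325 of 15323 genes were called (2.12%), 122 higher and 203 lower. Of those 325 genes, 171 could be tested in Vip nuclei, 127 had the same sign there and 0 were called by edgeR. The share with the same sign over all genes tested is not given here. Both sets of nuclei come from the same libraries, so the count of 127 is a description only. A difference of response between Vip and other inhibitory nuclei was called for 0 of 4198 genes (0.0%, limma), and 345 had an unadjusted p under 0.05. With at least 3 Vip UMIs required, or with a mean of at least 20 counts per gene required, 1 gene was called there, Mir670hg (limma adjusted p = 0.0348 and 0.0282). A gene without a call is not shown to be unresponsive.

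Markers of other cells in Vip nuclei also varied between libraries. Among 4 choroid plexus and ependymal markers, the summed level in Vip nuclei was 0 to 4.93 CPM after sevoflurane and 37.1 to 329 CPM with oxygen. Most of it was Ttr, which encodes transthyretin, with 0 UMIs in each sevoflurane library and 28, 9 and 67 in the oxygen libraries. The order was the same in other inhibitory nuclei, at 1.40 to 4.91 CPM of Ttr after sevoflurane and 49.2 to 339 CPM with oxygen. Nuclei with exactly 1 Vip UMI held 1, 2 and 1 Ttr UMIs against 25, 20 and 123. In Vip nuclei the 6 oligodendrocyte markers summed to 218 to 404 CPM after sevoflurane and 186 to 810 CPM with oxygen. Mbp, the main myelin gene among them, had 11, 5 and 13 UMIs against 59, 10 and 34 (log2 fold change -1.57, edgeR adjusted p = 0.623). The 6 astrocyte markers summed to 242 to 312 CPM and to 206 to 963 CPM. All 4 oligodendrocyte precursor markers together gave 16.5 to 27.3 CPM and 26.7 to 66.0 CPM, and 5 microglial markers 45.4 to 78.9 CPM and 53.3 to 74.2 CPM. Their part in the values of the lower genes was not tested. When the 34 nuclei with markers of other classes were left out, Tmeff2 and Maml2 stood at -0.68 and -0.90. Over all 18 alternatives, that setting among them, Ptprm ranged from -1.95 to -1.01 and Cdh20 from -1.39 to -0.90.

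Gene lists for the functions of these cells were counted in the same fit, and 0 members of any list were called by edgeR. The lists were drawn up with earlier results of these data known, and their counts are a description. At an unadjusted p under 0.05, against 3.5% higher and 3.43% lower over all genes tested, the GABA-A list had 0 higher and 2 lower of 17 and the glutamate receptor list 0 and 1 of 19. The potassium and HCN channel list had 1 and 2 of 22, the calcium and sodium channel list 1 and 0 of 20 and the stress list 0 and 2 of 11. The caudal-origin list had 2 and 1 of 16, the medial-origin list 1 and 0 of 9, the clock list 1 and 0 of 6 and the list from the earlier analysis 0 and 2 of 8. Of the 27 neuropeptide and peptide processing genes, 12 could be tested beside the genes of the rule, 10 with a positive and 2 with a negative log2 fold change and a median of 0.57, beside -0.0089 over all genes tested. Of these 12, 3 were higher and 0 lower at an unadjusted p under 0.05. Penk had 6, 13 and 15 UMIs after sevoflurane and 4, 3 and 4 with oxygen, that is 49.5, 64.1 and 45.4 CPM against 13.3, 12.4 and 18.3 CPM (log2 fold change 1.78, SE 0.54, edgeR adjusted p = 0.435). All 3 sevoflurane libraries lay above the oxygen libraries. In nuclei with exactly 1 Vip UMI, Penk had 2, 10 and 1 UMIs and 1, 1 and 1. Scg5, a chaperone of the convertase PC2, had 22, 44 and 58 UMIs against 39, 23 and 28 (0.65). The granin gene Chgb had 0.68 and Tac2 0.83. In the other inhibitory nuclei 20 genes of the list were tested, with a median of 0.05.

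Receptors through which other neurons reach Vip cells were mostly too sparse. Of 32 genes 8 were tested, with a median log2 fold change of 0.08 and a range of -0.21 to 0.56. Adra1b, among the genes richest in Vip nuclei, had 0.56 (SE 0.28), and the muscarinic receptor gene Chrm3 -0.05 (SE 0.23). Caudal-origin and Vip cell markers gave 16 tested genes with a median of 0.11, from -1.61 (Ptprm) to 1.78 (Penk). Adarb2 stood at -0.16 (SE 0.21), and its sign turned to 0.01 when a trend with gene span was removed. Igf1 had 45, 56 and 111 UMIs against 72, 60 and 37 (0.52, SE 0.23). Among 9 medial-origin and other interneuron markers the median was -0.04, and the extreme value, Nxph1 at -2.71 (SE 1.71), rested on the 271 UMIs of oxygen replicate 2. Elfn1, a synaptic adhesion protein, had 1.25 (SE 0.42). The 4 tested genes of inhibitory transmission had a median of -0.15, with Dlx1, an interneuron transcription factor, at 0.39.

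Targets of the anaesthetic and channels showed small values. Of 17 GABA-A, glycine and related receptor genes 6 were positive and 11 negative, with a median of -0.13. Gabrb2, the GABA-A subunit beta 2, had 57, 90 and 130 UMIs after sevoflurane and 146, 218 and 129 with oxygen, or 470.1, 444 and 394 CPM against 487, 899 and 589 CPM. Its log2 fold change was -0.65 (SE 0.25, edgeR adjusted p = 0.572), and in the other inhibitory nuclei it fell by 0.61 (adjusted p = 0.0106). Gabrb1 had -0.47 (SE 0.21). Of 19 glutamate receptor genes 6 were positive and 13 negative, with a median of -0.26. Grin2a, an NMDA receptor subunit, had 62, 217 and 210 UMIs against 518, 246 and 171 (-0.70, SE 0.33), and its sign turned when at least 3 Vip UMIs were required (0.13). Potassium and HCN channels gave 22 tested genes and a median of -0.10. Kcnq5, a subunit of the M-current, had 186, 235 and 282 UMIs against 566, 508 and 361, or 1534, 1158 and 854 CPM against 1887, 2094 and 1648 CPM (-0.72, SE 0.23, adjusted p = 0.514). The two-pore channel gene Kcnk9 had 9, 13 and 15 UMIs against 12, 7 and 5 (0.84, SE 0.41). Calcium and sodium channels, 20 tested, had a median of -0.08, with Cacna2d1, an auxiliary calcium channel subunit, at -1.02 (SE 0.49). Cacna2d1 stood at 322, 340 and 294 CPM after sevoflurane and at 453, 1126 and 278 CPM with oxygen, so the groups overlapped.

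Transmitter release genes, 25 of them tested, had a median of -0.0038. At an unadjusted p under 0.05, 4 were higher and 0 lower, beside 3.5% higher and 3.43% lower over all genes tested. Snap25, a core protein of vesicle fusion, had 131, 302 and 380 UMIs against 297, 203 and 151 (0.52, SE 0.22), and its partner Stx1a 9, 15 and 17 against 8, 4 and 11 (1.02, SE 0.42). Activity-induced genes were nearly all below the test's limit on counts in Vip nuclei: 3 of 34 were tested. Of these, Nr4a1 had 11, 13 and 14 UMIs after sevoflurane and 15, 7 and 9 with oxygen (0.53, SE 0.39), and Homer1 14, 47 and 43 against 64, 20 and 20 (0.24, SE 0.38). Junb, which could not be tested and was chosen after its values were seen, had 4, 9 and 8 UMIs and 1, 0 and 1. Not all untested genes of the list had this order. Jun had 4, 9 and 5 UMIs after sevoflurane and 9, 6 and 6 with oxygen. Egr1 had 4, 6 and 3 against 5, 6 and 4, and Nr4a2 had 1, 3 and 6 against 8, 5 and 3. In the other inhibitory nuclei 31 of the list were tested, 29 with a positive sign and a median of 0.41. Of these 31, 1 was called, Nr4a3 at 1.18 (edgeR adjusted p = 0.0233), beside 2.12% called over all genes tested there. The median over all genes there was 0.01, and their share of positive signs is not given here. In Vip nuclei Nr4a3 had 8, 9 and 4 UMIs after sevoflurane and 5, 1 and 1 with oxygen.

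Among 11 tested stress, glucocorticoid and p53 genes the median was 0.10. Hspa5, a chaperone of the endoplasmic reticulum, had 5, 9 and 6 UMIs against 10, 23 and 22 (-1.27, SE 0.49), and the mineralocorticoid receptor gene Nr3c2 had -0.54 (SE 0.22). Of 19 clock genes 6 were tested, led by Cry2 with 11, 23 and 35 UMIs against 17, 15 and 9 (0.92, SE 0.29). The cholesterol synthesis list was too sparse in Vip nuclei to be described. A list of 23 genes called by an earlier analysis of these libraries in inhibitory or many classes gave 8 tested genes, 7 of them negative, with a median of -0.32. This list was chosen on the same libraries and is no independent evidence of direction. Plxdc2, a membrane protein gene on it, had 12, 20 and 41 UMIs against 51, 57 and 38 (-0.86, SE 0.26), equal within its error to the other inhibitory nuclei, where it fell by 0.86 (adjusted p = 0.00464). Prr16, which fell by 0.73 there (adjusted p = 0.00464), stood at 0.17 (SE 0.26) in Vip nuclei.

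**Figure D5:**
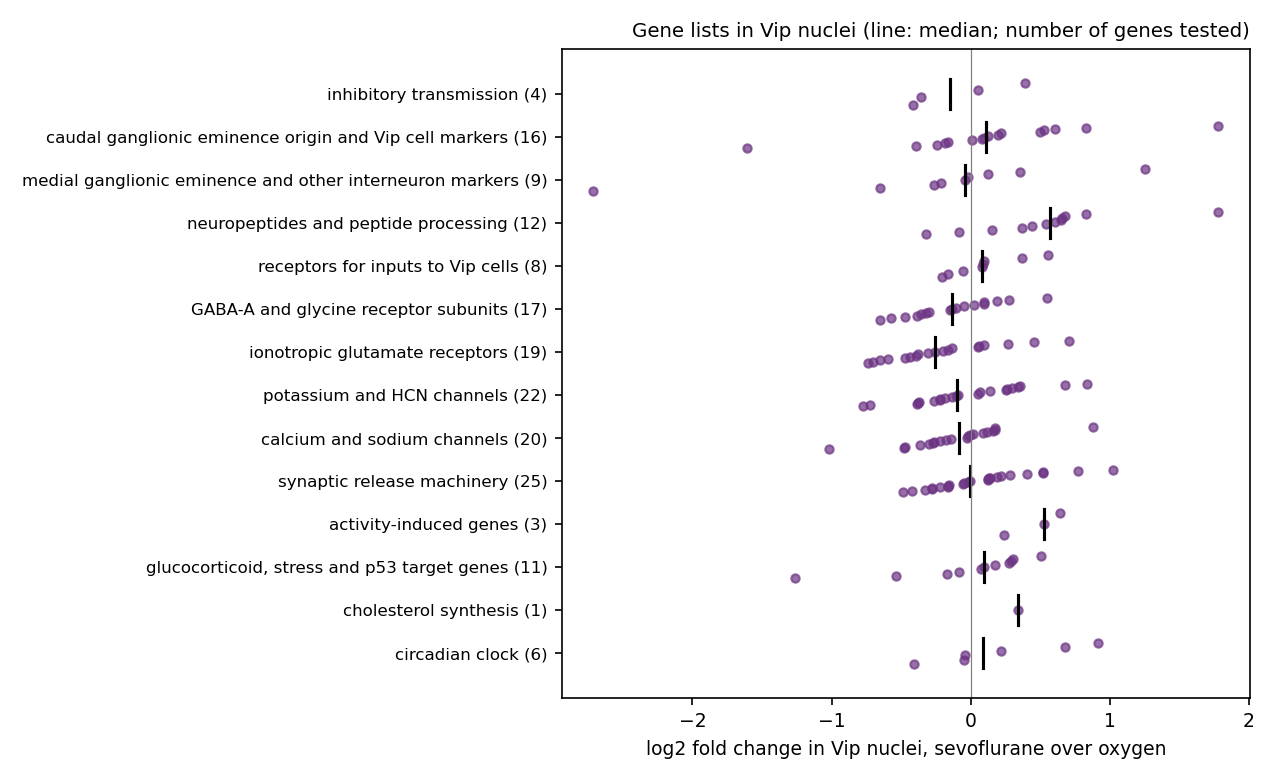
Log2 fold change of sevoflurane over oxygen for each tested gene of 14 lists in Vip nuclei, 1 point per gene, the list's median as a black line and the number of genes tested in brackets. The neuropeptide list has a median of 0.57 and the glutamate receptor list one of -0.26, and no point passes the test.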

How the data were processed

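Single-nucleus 3′ libraries were deposited as filtered matrices of raw counts (UMIs per gene and barcode), written by Cell Ranger 7.1.0 per the file headers. The submitters' processing notes also name fastp and mm10. Whether intronic reads were counted is not given in the sources used here. Members and gene lists were chosen with earlier results of these data known. The unit of comparison is the library: counts were summed over the nuclei of each set and tested with edgeR 4.0.16 (quasi-likelihood, robust, TMM, filterByExpr, treatment only) in R 4.3.3, with Benjamini-Hochberg adjustment over all genes tested and a threshold of 0.05. The genes of the rule were left out of counts of calls. Differences of response between sets used limma 3.58.1 on log2 CPM (prior count 2) within each library. DESeq2 1.42.0 was an alternative. CPM in the text are counts over the summed UMIs of the set, without TMM. The exact permutation test on shares was two-sided. Scrublet ran in scanpy 1.11.5 (threshold 0.3), and marked nuclei were kept in the main analysis. Library totals were 56334621 to 72636984 UMIs. Positions come from GENCODE M21, matched by Ensembl ID for 32158 of 32285 genes. Scripts were tested on simulated counts. The text names the called genes, the 8 genes per direction with the smallest p at 10 CPM or more, and, per list, those with the smallest p; 1700016P03Rik, Nr4a3, Junb, the other-class markers and list members beyond that were added after their values were seen. Results on some genes are not reported here.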

Additional observations from a re-analysis of the deposited data

How the results depend on the processing

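Replicate numbers are shared between the groups, but same-numbered libraries did not deviate together in Vip nuclei (correlations -0.114, -0.0526 and -0.0725), so the numbers were not taken to pair them; with the replicate block, 1 gene was called in Vip nuclei and 0 for a difference of response. The count of 1 called gene became 34 with no filter on low counts (8 higher, 26 lower, Ttr, Mobp and St18 among the lower), and 0 without nuclei holding other markers, where 269 genes had an unadjusted p under 0.05 (edgeR). With 1 library left out it ranged from 1 to 9, being 9 without oxygen replicate 2 (St18 and Mbp, oligodendrocyte genes, among the 7 lower) and 2 without oxygen replicate 1. The 0 genes with a different response became 1 with a stricter count filter and 1 with at least 3 Vip UMIs, and stayed at 0 in each fit without 1 library. The difference in the share of all nuclei, -0.0130 percentage points, turned to 0.00450 with at least 3 Vip UMIs and to 0.00601 without nuclei holding other markers, and ranged from -0.0520 to 0.0218 with 1 library left out. Among single genes, Adarb2 turned to 0.0053 under the gene span correction and Grin2a to 0.13 with at least 3 Vip UMIs. Leaving out 1 library, Vip in all inhibitory nuclei ranged from -0.42 to -0.06 and the share of inhibitory nuclei from -1.24 to -0.425 percentage points. Thinning every nucleus to 2000 UMIs left 9 nuclei in the gate. The cause of these shifts was not tested.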

Other observations

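Nuclei with 1 or 2 Gad1 and Gad2 UMIs that met the limits on Vip, Sst and Pvalb numbered 34 in the sevoflurane and 35 in the oxygen libraries. They held 6, 13 and 13 Mir670hg UMIs and 2, 7 and 11, and 0 of them reached 10 UMIs. This was 143 ± 60.5 CPM after sevoflurane and 74.4 ± 49.0 CPM with oxygen (SD, n = 3), against 74.5 and 78.9 CPM in the other inhibitory nuclei, and the difference was not tested.

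Mir22hg, a further microRNA host gene, lies 284 kb from 1700016P03Rik and was too sparse to be tested. The Vip nuclei held 3, 14 and 7 UMIs of it after sevoflurane and 3, 5 and 2 with oxygen.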
